A study of Mus musculus with 12 samples.

Results

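Genes of MHC class II antigen presentation were followed in mouse back skin by RNA-seq. The 7 members were taken by symbol from the deposited expression table of 18505 genes: H2-Aa, H2-Ab1 and H2-Eb1, which encode class II chains, H2-DMa, H2-DMb1 and Cd74, which act in peptide loading, and Ciita, their regulator. All 7 were present in the table and all 7 passed the filter on low values, which left 15288 genes for testing. The 12 samples came from the back skin of wild-type male BALB/c mice of 5 to 6 weeks. The treatment label of the control group (n = 4) reads as blank handling, and per the methods of the study these mice received petroleum jelly. In the IMQ + NS group (n = 4) imiquimod cream, an agonist of Toll-like receptors that gives psoriasis-like lesions, was left on the back skin for 6 h a day and was followed by normal saline. In the IMQ + BZLF group (n = 4) the cream was followed by Banzhilian formula, a Chinese herbal preparation applied to the lesions. Per the methods, both lesion groups were then covered with gauze and a polyurethane film, which is not described for control. In lesions against control, imiquimod, the solution and this covering cannot be told apart. Skin was taken on day 10 in all groups. The labels do not give the BZLF dose of the sequenced samples, and the model is a whole-skin lesion driven by a cream, with no cell sorting.

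MHC class II molecules show peptides from taken-up proteins to CD4 T cells. An alpha and a beta chain pair in the endoplasmic reticulum around the invariant chain, the product of Cd74, which blocks the groove and guides the complex to endosomes. There cathepsins trim the invariant chain down to a fragment named CLIP, and the H2-DM dimer of H2-DMa and H2-DMb1 exchanges CLIP for other peptides. Ciita encodes the class II transactivator, a co-activator that does not bind DNA itself and is recruited by factors on the W, X and Y boxes of these promoters. In skin, dendritic cells, Langerhans cells and macrophages carry most class II, and interferon gamma can induce it in other cells, keratinocytes among them.

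Most of the members lie together in the class II region. In the GRCm38 annotation, H2-DMa is at chr17:34119693-34139101, H2-DMb1 at chr17:34153191-34160229, H2-Ab1 at chr17:34263227-34269418, H2-Aa at chr17:34282744-34287823 and H2-Eb1 at chr17:34305867-34316674. H2-Aa is on the minus strand and the others are on the plus strand. Ciita is at chr16:10480014-10531064 on the plus strand. The values are FPKM, fragments scaled to transcript length and to the mapped fragments of the sample, so levels of different genes can be set side by side per length. Of 1629 stretches of 50 bases in the H2-DMb1 transcripts, 369 (22.7%) are also in H2-DMb2, and the split of reads between these neighbours is uncertain. For H2-Aa that share was 0.488%, with 9530046B11Rik, and for the other 5 members it was 0. The reference genome is of the C57BL/6 strain and BALB/c carries another H2 haplotype, so reads from the polymorphic chains may align less completely. That applies alike to all 12 samples.

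Promoters are shown for H2-Aa, H2-Eb1 and H2-DMb1. H2-DMa also had windows, which were searched and are not shown. The choice was not made by how closely the genes moved together. RefSeq promoter windows (GRCm38.p6, 250 bases before to 50 after the start), matched by symbol, were searched for 4 of the 7 members. Promoters of the other members were not searched, which does not mean that RefSeq lacks windows for them. Capitals mark matches, on either strand, to the Y box CTGATTGG, to an X1 core ACNGATG, and to CCAAT or its inverse ATTGG. The Y box contains ATTGG, so a Y box is also a CCAAT match. The windows are chr17:34287774-34288073 on the minus strand, chr17:34305617-34305916 on the plus strand and chr17:34152941-34153240 on the plus strand.
H2-Aa: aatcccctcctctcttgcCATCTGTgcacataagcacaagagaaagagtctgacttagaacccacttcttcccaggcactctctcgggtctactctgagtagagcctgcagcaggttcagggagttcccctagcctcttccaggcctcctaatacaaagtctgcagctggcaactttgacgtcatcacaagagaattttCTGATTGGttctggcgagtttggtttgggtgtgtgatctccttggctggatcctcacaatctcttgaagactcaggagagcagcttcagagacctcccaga
H2-Eb1: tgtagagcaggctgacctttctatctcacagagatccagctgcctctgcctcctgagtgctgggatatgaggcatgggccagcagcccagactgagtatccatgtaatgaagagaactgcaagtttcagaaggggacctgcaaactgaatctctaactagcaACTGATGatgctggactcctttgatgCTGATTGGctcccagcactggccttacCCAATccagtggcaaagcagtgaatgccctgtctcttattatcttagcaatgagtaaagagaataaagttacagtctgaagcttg
H2-DMb1: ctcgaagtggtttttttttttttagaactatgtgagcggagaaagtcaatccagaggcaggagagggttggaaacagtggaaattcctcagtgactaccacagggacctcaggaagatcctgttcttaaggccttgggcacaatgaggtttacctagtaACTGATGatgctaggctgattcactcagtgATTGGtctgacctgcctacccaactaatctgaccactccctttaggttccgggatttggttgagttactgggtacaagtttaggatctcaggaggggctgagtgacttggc

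The H2-Aa window held a Y box at bases -51 to -44 from the start, and the H2-Eb1 window held 1 at -62 to -55. In H2-Eb1 an X1 core stood at -88 to -82, with 19 bases between it and the Y box. The H2-DMb1 window held the same X1 letters at -91 to -85 and ATTGG at -61 to -57, without the full Y box. H2-Eb2, the gene next to H2-Eb1, had the X1 core and the Y box with the same gap of 19 bases. Among 32544 promoter windows, 4.07% held the Y box, 9.87% the X1 core and 37.4% a CCAAT match. An X1 core followed by a Y box 10 to 50 bases on was found in 7 windows (0.0215%), those of H2-Eb1, H2-Eb2, Clrn1, Gm16958, Gm30539, Gm35444 and Tmsb15a. The H2-DMa windows, of which there are 2, held no Y box and no X1 core. Both lie inside the span of the gene given above and not at its first base, so other starts of H2-DMa may not have been searched. TTCNNNGAA, the letters of a gamma activated site, was in none of the windows of these 4 members and in 8.33% of all. A match is a run of letters and not a measured binding site.

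All 7 class II genes were lower in the lesions than in control skin, whether or not BZLF was applied. In IMQ + NS against control, 7 of 7 members fell at an adjusted p below 0.05, where 27.1% of all genes tested were lower and 29% higher. Of these, 6 fell over 2-fold, against 11% of all genes, and Ciita did not. With the samples scaled to equal sums, the 4142 lower and 4427 higher genes became 4999 and 3161, and 7 of 7 members were still lower. In IMQ + BZLF against IMQ + NS, 0 of 7 passed in either direction, beside 5.17% lower and 1.28% higher among all genes. No member reached an unadjusted p below 0.05 in that comparison either. In whole skin, fewer cells of a type and less RNA per cell cannot be told apart.

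Sums of FPKM per sample ran from 444660 to 506622, and 16649 to 16941 genes were above 0 in each. The read depth behind them cannot be recovered from these values. Control replicate 2 was the lowest of its group for 7 of 7 members, and IMQ + BZLF replicate 1 was the lowest of its group for 7 of 7. Their mean deviations over the 6 members other than Ciita were -0.40 and -0.49 on the log2 scale, against -0.12 to 0.25 for the other 10 samples. Nothing in the labels says that the replicates were processed on different days or that they came from separate mice, so p-values measure only the spread between these samples, which may be technical.

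Of the chains, H2-Aa, the alpha chain of I-A, stood at 463, 314, 534 and 470 FPKM in control replicates 1 to 4. In IMQ + NS it was at 119, 148, 106 and 101 FPKM, and in IMQ + BZLF at 101, 169, 171 and 141 FPKM. The lesion samples were all below the lowest control, and the NS and BZLF samples overlapped. The level was 3.72-fold lower in IMQ + NS than in control (95% confidence interval 2.81 to 4.93, adjusted p = 5.8e-05, limma). With BZLF it was 1.22-fold that of IMQ + NS, with an interval of 0.917 to 1.61 and an adjusted p of 0.393.

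H2-Ab1, the beta chain of I-A, was at 346, 232, 391 and 351 FPKM in the control samples. In IMQ + NS it was at 104, 115, 98.3 and 92.1 FPKM. In IMQ + BZLF it was at 73.5, 119, 121 and 111 FPKM. Again no lesion sample reached the controls, and BZLF replicate 1 lay below every NS sample while the other BZLF samples lay among them or just above. The gene fell 3.17-fold in IMQ + NS (interval 2.47 to 4.06, adjusted p = 5.9e-05), and its ratio of IMQ + BZLF to IMQ + NS was 1.02 (interval 0.803 to 1.30, adjusted p = 0.936).

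H2-Eb1, the beta chain of I-E, was at 260, 187, 280.5 and 255 FPKM in control. It was at 67.9, 68.1, 54.2 and 56.6 FPKM in IMQ + NS and at 45.8, 81.0, 81.3 and 73.7 FPKM in IMQ + BZLF. In the BZLF group 3 of 4 samples were above every NS sample and the fourth was below them. It fell 3.95-fold in IMQ + NS (interval 3.18 to 4.91, adjusted p = 1.2e-05), and the ratio of IMQ + BZLF to IMQ + NS was 1.12 (interval 0.845 to 1.48, adjusted p = 0.639). The alpha chain of I-E, H2-Ea, was not analysed here.

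**Figure D1:**
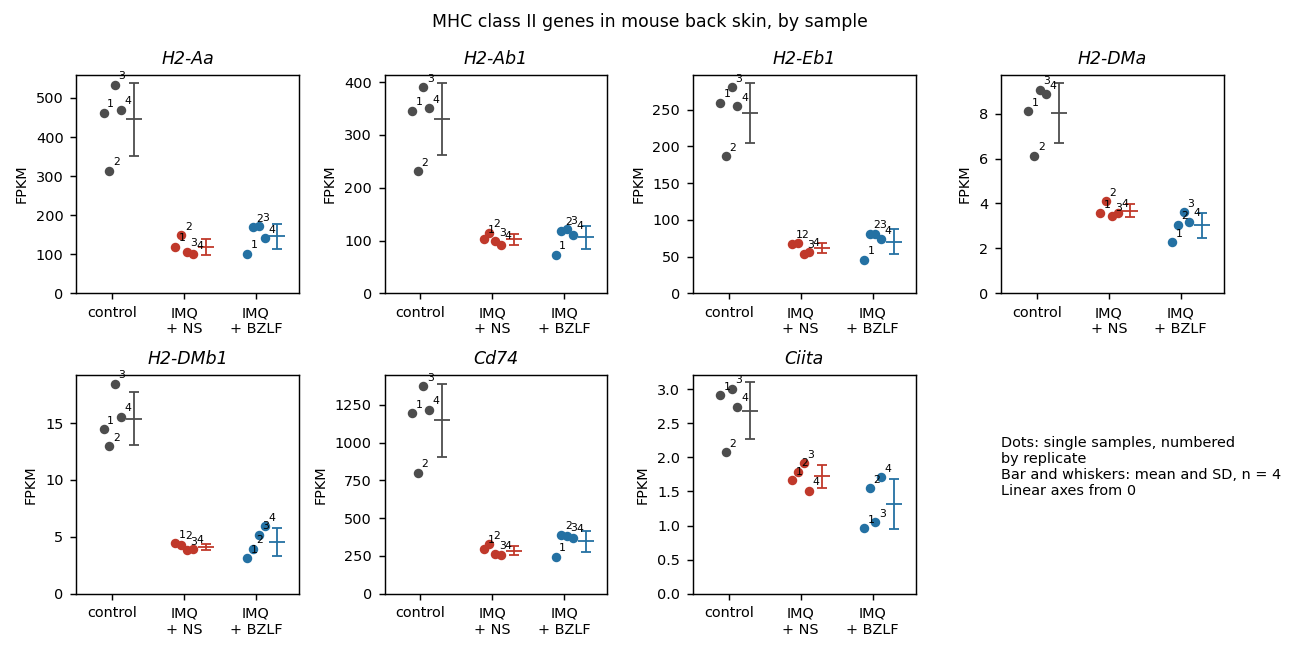
FPKM of the 7 class II genes (linear axes from 0) in each sample of control, IMQ + NS and IMQ + BZLF skin, with dots for samples numbered by replicate and bars with whiskers for the mean and SD (n = 4). For all 7 genes the control dots lie above the dots of both lesion groups, control replicate 2 and IMQ + BZLF replicate 1 are the lowest of their groups, and the 2 lesion groups overlap.

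In peptide loading, Cd74 was the most abundant member, at 1193, 799, 1375 and 1217 FPKM in control. It was at 297, 326, 263 and 257 FPKM in IMQ + NS, and at 244, 391, 382 and 369 FPKM in IMQ + BZLF. In the BZLF group 3 of 4 samples lay above every NS sample, and replicate 1 lay below them all. Cd74 fell 3.95-fold in IMQ + NS (interval 3.05 to 5.12, adjusted p = 3.0e-05). The ratio of IMQ + BZLF to IMQ + NS was 1.20, with an interval of 0.941 to 1.52 and an adjusted p of 0.358. This was the only member whose call turned on a library: without IMQ + BZLF replicate 1, Cd74 was 0.42 higher in log2 in IMQ + BZLF than in IMQ + NS and passed (adjusted p = 0.0322).

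H2-DMb1, the beta chain of the exchange factor, was at 14.5, 13.0, 18.5 and 15.6 FPKM in control. In IMQ + NS it was at 4.42, 4.32, 3.83 and 3.94 FPKM, and in IMQ + BZLF at 3.13, 3.95, 5.17 and 5.91 FPKM. The NS samples were close together and the BZLF samples spread to both sides of them. It fell 3.63-fold in IMQ + NS (interval 3.01 to 4.39, adjusted p = 7.5e-06), and its ratio of IMQ + BZLF to IMQ + NS was 1.07 (interval 0.810 to 1.41, adjusted p = 0.790).

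H2-DMa is the alpha chain of that factor. It was at 8.11, 6.13, 9.07 and 8.86 FPKM in control, at 3.57, 4.11, 3.44 and 3.58 FPKM in IMQ + NS, and at 2.28, 3.05, 3.61 and 3.18 FPKM in IMQ + BZLF. The fall in IMQ + NS was 2.14-fold (interval 1.72 to 2.66, adjusted p = 2.6e-04). In the BZLF group 3 samples were below every NS sample, and the ratio to IMQ + NS was 0.821 (interval 0.664 to 1.01, adjusted p = 0.249).

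Ciita, the regulator, had the lowest level and the smallest fall of the 7. It was at 2.91, 2.07, 3.01 and 2.74 FPKM in control and at 1.66, 1.79, 1.92 and 1.51 FPKM in IMQ + NS. In IMQ + BZLF it was at 0.959, 1.54, 1.05 and 1.71 FPKM, with 2 samples below every NS sample. Its fall in IMQ + NS was 1.52-fold (interval 1.21 to 1.92, adjusted p = 0.00782), so it passed the test and not the 2-fold limit. The ratio of IMQ + BZLF to IMQ + NS was 0.761 (interval 0.569 to 1.02, adjusted p = 0.244).

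The order of the mean levels in control skin was Cd74 (1146 ± 245 FPKM, SD, n = 4), H2-Aa (445 ± 93.0), H2-Ab1 (330 ± 68.5), H2-Eb1 (245 ± 40.5), H2-DMb1 (15.4 ± 2.33), H2-DMa (8.04 ± 1.34) and Ciita (2.68 ± 0.420). The ranges of H2-Aa and H2-Ab1, and of H2-Ab1 and H2-Eb1, overlapped in control, while the other neighbours in the order did not. In IMQ + NS the order was the same, with Cd74 at 286 ± 32.2 FPKM and Ciita at 1.72 ± 0.174 FPKM. There the ranges of H2-Aa and H2-Ab1 overlapped, and so did those of H2-DMb1 (4.13 ± 0.283) and H2-DMa (3.67 ± 0.298). In IMQ + BZLF the order again held, from Cd74 at 346 ± 69.1 FPKM down to Ciita at 1.32 ± 0.369 FPKM, with overlap between H2-Aa and H2-Ab1, between H2-Ab1 and H2-Eb1, and between H2-DMb1 and H2-DMa.

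**Figure D2:**
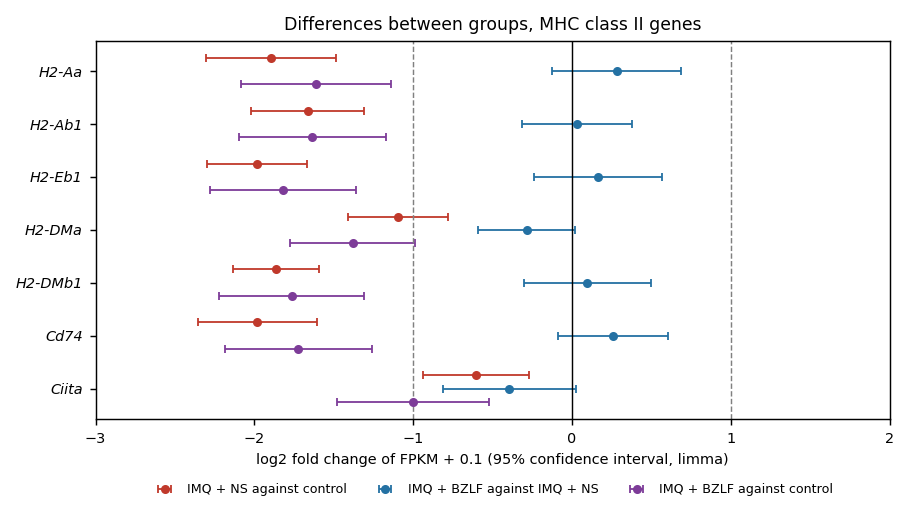
Log2 fold changes of FPKM + 0.1 (x axis) with 95% confidence intervals from limma for the 7 genes in the 3 comparisons, with dashed lines at 2-fold. Both lesion groups lie left of 0 against control for every gene, while the intervals of IMQ + BZLF against IMQ + NS all include 0.

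The fall in the lesions was also there when the BZLF group was set against control. In that comparison 7 of 7 members fell, beside 29.2% of all genes lower and 23.8% higher, and 6 of 7 fell over 2-fold, beside 10.1% of all genes. The log2 fold changes were -1.61 for H2-Aa, -1.64 for H2-Ab1, -1.82 for H2-Eb1, -1.38 for H2-DMa, -1.76 for H2-DMb1 and -1.72 for Cd74. Ciita, at -0.999 (SE 0.21, adjusted p = 0.00433), was just short of the 2-fold limit. The median over the 7 was -1.64 in IMQ + BZLF and -1.86 in IMQ + NS, both against the same control samples, and the medians over all genes were -0.018 and 0.053. Between the lesion groups the median of the members was 0.097 and that of all genes -0.023.

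All 7 members had groups without overlap in IMQ + NS against control, as did 25.7% of all genes in that direction. In IMQ + BZLF against IMQ + NS, groups without overlap and lower were found for 0 of 7 members, beside 10.9% of all genes. A two-sided exact permutation test gave p = 0.0286 for each member in IMQ + NS against control. That is the smallest p that 4 against 4 samples allow, and it was 0.0429 after adjustment over 21 tests.

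The estimated falls of the members differed in size, and the ratios between them within a sample are given here as a description. The ratio of Ciita to H2-Aa was 0.00609 for control, 0.0148 for IMQ + NS and 0.00921 for IMQ + BZLF, and control and IMQ + NS did not overlap. The ratio of H2-DMb1 to H2-DMa was 1.92 ± 0.18 for control, 1.13 ± 0.080 for IMQ + NS and 1.49 ± 0.25 for IMQ + BZLF (SD, n = 4), and the NS samples were below all of the others. H2-DMb2, the second H2-DM beta chain gene, was left out of this ratio, and the split of reads between it and H2-DMb1 is uncertain. Mean H2-DMb2 levels were 17.5 (control), 9.02 (IMQ + NS) and 6.92 FPKM (IMQ + BZLF), each above the mean of H2-DMb1. The ratio therefore does not give the balance of H2-DM alpha and beta chain RNA. H2-DMa per H2-Aa was 0.0182 for control, 0.0314 for IMQ + NS and 0.0210 for IMQ + BZLF, with the NS samples above all of the others. H2-Ab1 per H2-Aa, the chains of a single dimer, was tight in control (0.732 to 0.748) and higher in every IMQ + NS sample (0.776 to 0.925), and it was 0.700 to 0.789 in IMQ + BZLF.

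Cd74 per H2-Aa had the steadiest means, at 2.57 for control, 2.43 for IMQ + NS and 2.39 for IMQ + BZLF. H2-Eb1 per H2-Aa was 0.556, 0.525 and 0.482 in the same order. Each ratio whose groups did not overlap had an exact permutation p of 0.0286, two-sided, the smallest the design allows. Adjusted over the 18 tests of ratios that p was 0.0735, so no shift of a ratio passed the correction. A p at this floor passes only if enough of the 18 tests reach it, whatever the size of a shift. The correction therefore cannot decide on a single ratio.

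**Figure D3:**
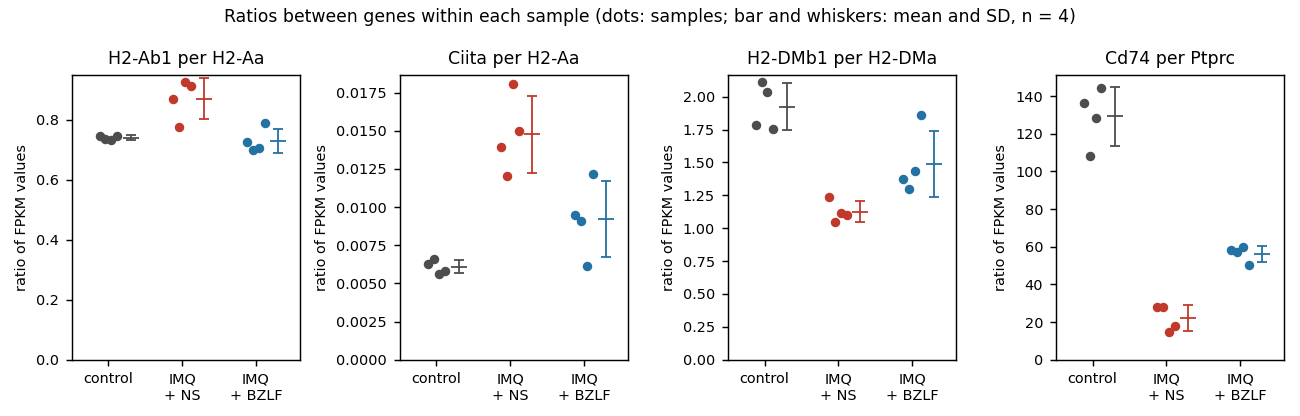
Ratios of FPKM values within each sample (linear axes from 0) for H2-Ab1 per H2-Aa, Ciita per H2-Aa, H2-DMb1 per H2-DMa and Cd74 per Ptprc, with dots for samples and bars with whiskers for the mean and SD (n = 4). The IMQ + NS samples lie above control in the first and second panels and below it in the others, and in the last panel the 3 groups do not overlap.

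The remaining class II genes that could be tested were also lower in the lesions. H2-Oa and H2-Ob encode H2-O, an inhibitor of H2-DM, and H2-DMb2 is the second beta chain gene of H2-DM. Of these 3 tested genes, 3 fell in IMQ + NS against control, beside 27.1% of all genes. The log2 fold changes were -1.25 for H2-Oa, -1.19 for H2-Ob and -0.90 for H2-DMb2. All 3 fell in IMQ + BZLF against control as well (-1.53, -1.35 and -1.32), beside 29.2% of all genes. Between the lesion groups 0 passed in limma, also at an unadjusted p below 0.05 (-0.29, -0.16 and -0.42). There 5.17% of all genes fell at the adjusted limit. H2-DMb2 was at 10.8 to 21.9 FPKM in control, 7.37 to 9.76 FPKM in IMQ + NS and 4.31 to 9.03 FPKM in IMQ + BZLF. H2-Eb2 was at or near 0 in every sample, at most 0.0256 FPKM, and was not tested.

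The counts for genes of endosomal processing were near those of all genes in IMQ + NS against control (27.1% lower and 29% higher). Of 10 such genes, 3 fell in IMQ + NS: Ctsz at -0.31 and Ctsh at -0.59, which encode cathepsins Z and H, and Cst3 at -1.06, which encodes the protease inhibitor cystatin C. Another 3 rose, Ctsl at 0.36, Ctsd at 0.49 and Ctse at 3.44. Ctss encodes cathepsin S, which trims the invariant chain in antigen-presenting cells, and it did not pass in that comparison (0.11, adjusted p = 0.50). With BZLF against IMQ + NS it fell by 1.02 in log2 (adjusted p = 0.0145, limma), the single gene of the 10 to fall, beside 5.17% of all genes. Its level was 86.9 to 112 FPKM in control, 86.5 to 132 FPKM in IMQ + NS and 35.5 to 60.9 FPKM in IMQ + BZLF, so every BZLF sample was below every other sample. Lgmn and Ifi30, the legumain protease and the lysosomal thiol reductase, had values of -0.43 and -0.38 between the lesion groups and did not pass. Against control, 6 of the 10 fell in IMQ + BZLF and 1, Ctse, rose, beside 29.2% of all genes lower and 23.8% higher.

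Class II on the surface is turned over by ubiquitin ligases. Marchf1 and Marchf8, which encode these ligases, did not pass in IMQ + NS (-0.22 and -0.11). Cd83, whose product counters Marchf1 on dendritic cells, fell by 1.76 in log2 (adjusted p = 0.00189), from 3.95 to 12.6 FPKM in control to 1.72 to 2.32 FPKM in IMQ + NS. With BZLF it was at 1.29 to 2.34 FPKM and was not called against IMQ + NS (-0.25).

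None of the factors that occupy class II promoters was called lower. Of 10 genes, 0 fell in limma (0 also at an unadjusted p below 0.05) and 2 rose in IMQ + NS, the acetyltransferase genes Crebbp (0.58) and Ep300 (0.59). Among all genes 27.1% fell and 29% rose, so the share of these genes that rose was not above that of all genes. The genes of the RFX complex on the X box, Rfx5, Rfxap and Rfxank, were at 0.13, -0.08 and 0.00 and did not pass, nor did Nfya, Nfyb and Nfyc of the Y box factor (0.25, 0.03 and 0.14). Between the lesion groups 0 of 10 passed in limma, with 0 lower and 1 higher at an unadjusted p below 0.05, and the values ran from -0.12 to 0.21. In IMQ + BZLF against control 0 fell and 3 rose, Kat2b (0.21) beside Crebbp and Ep300. There 29.2% of all genes fell and 23.8% rose.

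On the route from interferon gamma to Ciita, 3 of 9 tested genes fell in IMQ + NS, among them the receptor chain Ifngr1 (-0.53) and the transcription factor gene Irf1 (-0.60), a share near the 27.1% of all genes. None rose. With BZLF against IMQ + NS 1 of 9 fell, the kinase gene Jak1 (-0.43, adjusted p = 0.0411, limma), beside 5.17% of all genes. Against control, IMQ + BZLF had 6 of 9 lower, among them Ifngr1, Jak1, Irf1, Irf2 and Socs1, beside 29.2% of all genes. Irf1 was at 11.2 to 13.1 FPKM in control, 7.32 to 9.20 FPKM in IMQ + NS and 4.72 to 8.70 FPKM in IMQ + BZLF. Ifng was too low to test. It was at 0.476, 0.0207, 0.169 and 0.170 FPKM in control, and 3 of 4 samples of each lesion group listed it at 0, with 0.0206 and 0.0215 FPKM in the remaining ones.

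The class I pathway, which presents peptides from inside the cell to CD8 T cells, was lower too. Of 23 genes, 20 fell and 1 rose in IMQ + NS, with a median of -0.80 against -1.86 for the class II members. Among all genes, 27.1% fell and 29% rose there. H2-T22 (-1.39) and the immunoproteasome gene Psmb9 (-1.14) had the lowest p. The gene that rose was the chaperone gene Calr (0.35), named after its value was seen. Between the lesion groups 0 of 23 passed in limma, with 8 lower and 0 higher at an unadjusted p below 0.05 and a median of -0.17. Among all 15288 genes tested in that comparison, 2258 were lower and 1217 higher at that unadjusted p. The 4 lowest p there were those of Psme1 (-0.20), Psmb8 (-0.38), Canx (-0.19) and Pdia3 (-0.23). Against control 20 fell and 0 rose in IMQ + BZLF, with a median of -1.01. Among all genes, 29.2% fell and 23.8% rose there.

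Of 6 tested costimulatory genes, Cd86 (-0.57), Cd40 (-0.70) and the inhibitory ligand gene Cd274 (-0.37) fell in IMQ + NS, and Pdcd1lg2 (0.76), which encodes another inhibitory ligand, rose. Among all genes, 27.1% fell and 29% rose in that comparison. With BZLF against IMQ + NS, where 5.17% of all genes fell, only Pdcd1lg2 passed among these 6 (-1.65, adjusted p = 0.00922, limma). Its level was 0.172 to 0.256 FPKM in control, 0.357 to 0.591 FPKM in IMQ + NS and 0.0151 to 0.122 FPKM in IMQ + BZLF. Against control, IMQ + BZLF had 4 of 6 lower, beside 29.2% of all genes. Tnfsf4 and Cd70 were too low to test.

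**Figure D4:**
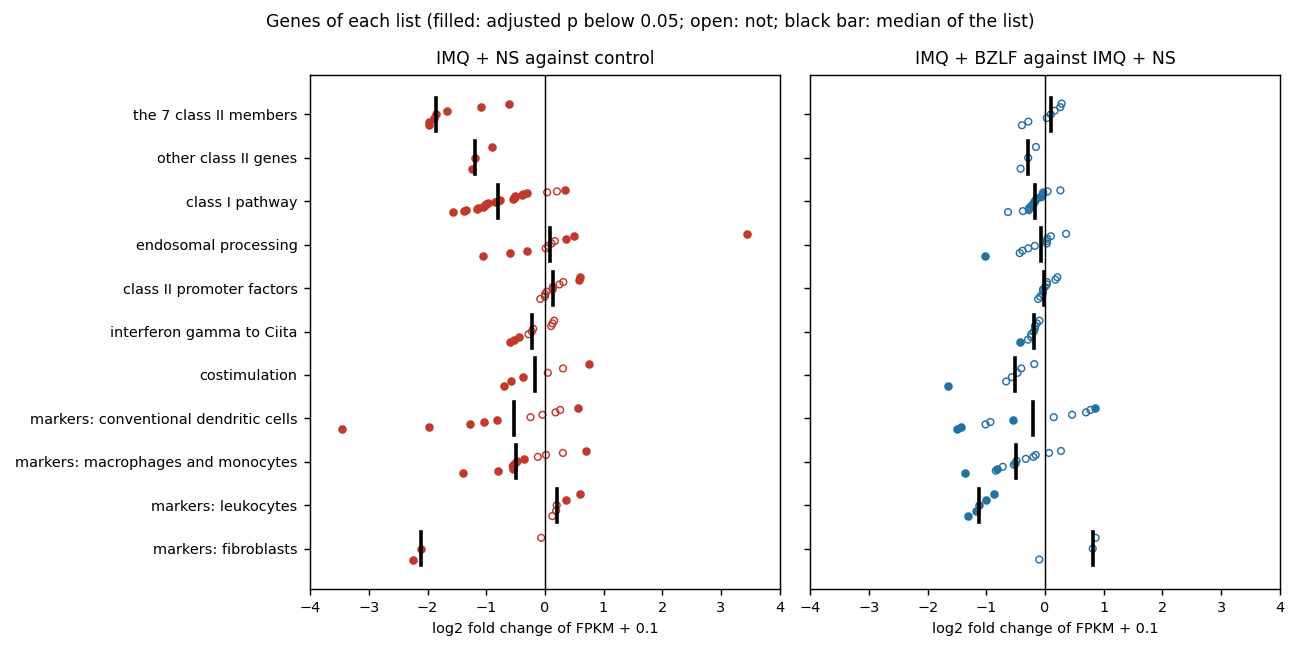
Log2 fold changes of FPKM + 0.1 (x axes) for each tested gene of 11 lists, in IMQ + NS against control and in IMQ + BZLF against IMQ + NS, with filled dots for adjusted p below 0.05 and black bars for the list median. The class II members sit at a median of -1.86 in the left panel and near 0, all open, in the right panel, where the 5 leukocyte markers are filled and to the left.

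Markers of leukocytes, and of the cell types that carry class II, did not follow the members throughout. Ptprc, the pan-leukocyte gene that encodes CD45, was at 8.76, 7.40, 10.7 and 8.42 FPKM in control and at 10.6, 11.6, 17.7 and 14.4 FPKM in IMQ + NS, where it rose by 0.60 in log2. It was at 4.20, 6.81, 6.41 and 7.37 FPKM in IMQ + BZLF, below every other sample, and fell by 1.12 against IMQ + NS (adjusted p = 0.014). Of the 5 leukocyte markers, 2 rose and 0 fell in IMQ + NS, beside 29% of all genes higher and 27.1% lower. With BZLF 5 of 5 fell, beside 5.17% of all genes. Their summed level was 157 to 196 FPKM in control, 173 to 249 FPKM in IMQ + NS and 62.1 to 113 FPKM in IMQ + BZLF.

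Set against Ptprc, Cd74 had 3 separate levels. The ratio was 129 ± 15.6 for control, 22.2 ± 6.88 for IMQ + NS and 56.3 ± 4.23 for IMQ + BZLF (SD, n = 4). Set against Itgax, the gene of CD11c on dendritic cells and other myeloid cells, Cd74 was at 630, 109 and 367 in the same order. These ratios describe whole-skin RNA and not the amount per cell. Ptprc marks all leukocytes, neutrophils among them, and not only the cells that carry class II. The neutrophil genes given below rose in IMQ + NS and fell with BZLF, and the part of neutrophils in the Ptprc values was not tested.

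Among 10 markers of conventional dendritic cells, 5 fell and 1 rose in IMQ + NS, beside 27.1% of all genes lower and 29% higher. Cd209a fell by 3.45 in log2, from 26.2 to 51.4 FPKM in control to 2.18 to 5.09 FPKM in IMQ + NS, and Clec10a by 1.97. Clec9a (-1.28), Xcr1 (-1.03) and Zbtb46 (-0.82) also fell, whereas Itgax rose by 0.56 and Flt3 did not pass (0.18). With BZLF against IMQ + NS 3 fell, Itgax (-1.43), Irf8 (-0.55) and Ccr7 (-1.49), and Clec10a rose (0.84). Among all genes, 5.17% fell and 1.28% rose there. The summed level of the 10 was 88.7 to 160 FPKM in control, 32.7 to 42.3 FPKM in IMQ + NS and 32.5 to 53.4 FPKM in IMQ + BZLF. Clec10a and Cd209a made up most of that sum in control. The other 8 genes summed to 17.7 to 25.4 FPKM in control, 17.1 to 21.1 FPKM in IMQ + NS and 7.42 to 12.8 FPKM in IMQ + BZLF, so that control and IMQ + NS overlapped.

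Cd207, which encodes langerin of Langerhans cells, was at 10.6 to 18.9 FPKM in control, 5.98 to 11.0 FPKM in IMQ + NS and 4.71 to 8.62 FPKM in IMQ + BZLF. It fell in both lesion groups against control (-0.92 and -1.02) and was not called between them (-0.10). The other genes on the Langerhans list, Epcam and Mfge8, are also expressed by other skin cells and both rose in IMQ + NS (1.10 and 0.46). The sum of the 3 was 101 to 120 FPKM in control, 153 to 185 FPKM in IMQ + NS and 133 to 160 FPKM in IMQ + BZLF.

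Of 12 markers of macrophages and monocytes, 7 fell and 1 rose in IMQ + NS, beside 27.1% of all genes lower and 29% higher. Csf1r (-0.81) and Cd163 (-1.40) were among those that fell, and Adgre1, the gene of F4/80, rose by 0.70. With BZLF 3 of 12 fell, Adgre1 (-1.36), C1qb (-0.52) and Fcgr1 (-0.81), and C1qc (-0.53, adjusted p = 0.055) did not pass. Among all genes 5.17% fell there. The sum of the 12 was 935 to 1342 FPKM in control, 659 to 942 FPKM in IMQ + NS and 433 to 644 FPKM in IMQ + BZLF. C1qa, C1qb and C1qc, named here for their size, made up most of it in control, with means of 334, 212 and 260 FPKM.

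B cells also carry class II. Their defining gene Ms4a1 was at or near 0 in all samples, at most 0.111 FPKM, and the list summed to at most 5.79 FPKM in any sample. Of the 3 B cell genes high enough to test, 2 rose and 0 fell in IMQ + NS, beside 29% of all genes higher and 27.1% lower. The part that cell numbers had in the change of the members was not tested.

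Other parts of the skin shifted as well. Col1a1 (-2.10) and Col1a2 (-2.24), the fibroblast collagen genes, fell in IMQ + NS, while Pdgfra did not pass (-0.06). With BZLF against IMQ + NS these were at 0.81, 0.86 and -0.10 and did not pass. The 3 together summed to 8023 to 11922 FPKM in control, 1765 to 2658 FPKM in IMQ + NS and 2578 to 4964 FPKM in IMQ + BZLF. Among all genes, 27.1% fell and 29% rose in IMQ + NS against control, and 5.17% fell and 1.28% rose in IMQ + BZLF against IMQ + NS. Of 4 keratinocyte genes 3 rose in IMQ + NS and 2 fell with BZLF. Their sum was 1810 to 2944 FPKM in control, 4738 to 7536 FPKM in IMQ + NS and 2118 to 3671 FPKM in IMQ + BZLF. Of 6 neutrophil genes 6 rose and then 6 fell, with sums of 31.6 to 50.3, 3126 to 9889 and 62.6 to 83.2 FPKM. S100a8 and S100a9 made up most of the IMQ + NS sum, with means of 3010 and 2909 FPKM. The other genes on that list averaged 0.856 (Ly6g), 6.49 (Cxcr2), 14.8 (Csf3r) and 13.2 FPKM (Retnlg) in IMQ + NS. FPKM values are shares of a total, and the part of these shifts in the values of the members was not tested.

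Within the class II group, H2-Aa, H2-Ab1, H2-Eb1 and Cd74 followed each other most closely. Over the 12 samples the Pearson r of log2 values ran from 0.990 to 0.996 among these 4 genes, and that of Ciita with the other members from 0.795 to 0.889. Over deviations from the group means, which leave out the differences between groups, H2-Ab1 and Cd74 had the highest r at 0.993 and H2-DMa and Ciita the lowest at 0.525. These values describe 12 samples that share their libraries among all genes, and control replicate 2 and IMQ + BZLF replicate 1 are the lowest of their groups in all members.

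The genes outside the group with the pattern most like the mean of the 6 members other than Ciita were sought among the 12650 others whose average FPKM reached 1. Over the 12 samples these were Cd63 (r = 0.995), Nenf, Ddit3, Gabarap, Prnp, Cenpv, Laptm4a, Dcn, Trip10 and Rspo1 (r = 0.991). Over deviations from the group means they were Nenf (r = 0.977), Gnptg, Serpinf1, Lpar1, Cpq, C1qtnf1, Mxra7, Ubtd1, Ndn and Dpt (r = 0.955). Cd63 encodes a tetraspanin of late endosomes, and Dcn and Dpt encode the matrix proteins decorin and dermatopontin. Cd63 was at 337 FPKM in control, 175 FPKM in IMQ + NS and 184 FPKM in IMQ + BZLF on average. Cst3 ranked 16th over the 12 samples (r = 0.989) and 11th over deviations from the group means (r = 0.954). Ep300, among the promoter factors, had an r of -0.970 over the 12 samples, at rank 12261 of 12650. Over deviations from the group means its r was -0.697.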

How the data were processed

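The authors deposited FPKM values for 18505 genes in 12 samples. The submitters' processing notes name fastp, HISAT2, HTSeq, R 3.2.0 and mm10, and their labels name TRIzol and a VAHTS library kit, whereas the methods of the study name other kits, alignment of reads to transcripts with Bowtie2 and quantification with eXpress. Which of these made the table is not given in the sources used here. Low values were not whole multiples of a smallest step beyond chance (10.1% of 158489 within 0.05), so counts were not recovered and depth is unknown.

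From these values log2(FPKM + 0.1) was computed for genes whose FPKM averaged 0.1 or more across all samples. Each pair of groups was fitted alone with limma 3.58.1 (R 4.3.3), with moderated variances and a trend, and p-values were adjusted by Benjamini-Hochberg over all 15288 genes. A gene was called at an adjusted p below 0.05 and counted as over 2-fold beyond a log2 fold change of 1. Fold changes are on the scale of FPKM + 0.1, which understates those of low genes. Single members and ratios were also tested with two-sided exact permutation tests. The fit was tested on simulated data. Each group serves in 2 of the 3 comparisons, which are thus not independent. Replicate numbers were not used in the fit. Alternatives were the constant, the filter, the scaling, the form of the fit and leaving out each replicate.

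The members and the gene lists were chosen with earlier results of these data known. All members were named. Genes of lists of up to 10 genes were named freely, and for longer lists the rule took the 4 lowest p between the lesion groups and the 2 lowest p in IMQ + NS against control. The 10 genes most like the members were taken by Pearson r. A few listed genes are not reported here by name.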

Additional observations from a re-analysis of the deposited data

Results flagged for a closer look

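In 2 of 21 checks, each of a member in a group of 4 samples, the lowest sample stood apart by Dixon's ratio of its gap to the range, past the 95% critical value for 4 samples. Both were IMQ + BZLF replicate 1. For Cd74 it had 244 FPKM, with a ratio of 0.878. For H2-Ab1 it had 73.5 FPKM, with a ratio of 0.832. Chance alone passes this check in about 1 in 20 groups, and the members are correlated, so the 2 are not separate evidence. The same sample was the lowest of its group for all 7 members, for Ptprc (4.20 FPKM) and for Col1a1 (1184 FPKM). The cause was not tested.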

How the results depend on the processing

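Against control, 7 of 7 members were lower under each of the 19 alternatives in both comparisons, and the number over 2-fold was 5 to 6 in IMQ + NS and 6 to 7 in IMQ + BZLF. Between the lesion groups the number of members lower was 0 throughout, and the number higher was 0 except with replicates left out, where it ran from 0 to 1. The 1 was Cd74, at 0.42 (adjusted p = 0.0322) without IMQ + BZLF replicate 1. Small differences changed sign: H2-Ab1 came to -0.034, -0.043 and -0.0032 without IMQ + BZLF replicates 2, 3 and 4 and to -0.020 without IMQ + NS replicate 4, and H2-DMb1 to -0.041 without IMQ + BZLF replicate 4. Without IMQ + BZLF replicate 1 these 2 genes were at 0.20 and 0.26. None of these values for H2-Ab1 and H2-DMb1 passed the test.

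With the replicate number as a block, 7, 0 and 7 members were lower in the 3 comparisons and no call of a member changed. The numbers were not taken to pair the samples. Same-numbered deviations had r of -0.152 to 0.260, over 0.1 in 6 of 12 pairs, those of replicates 3 and 4 and none of replicates 1 and 2. In both other groups at once, 6 of 12 samples correlated best with their own number, and these were the samples of replicates 3 and 4. Whether samples with these numbers share a source was not tested. Over all genes the IMQ + NS calls were 4142 lower and 4427 higher, and 4999 and 3161 with equal sums, where the median of all genes moved from 0.053 to -0.073. Between the lesion groups 791 lower and 195 higher became 579 and 295 with median ratio scaling and 603 and 95 in a fit of all 12 samples. Leaving out replicates gave 426 to 738 lower and 59 to 337 higher. Depth is unknown, so the counting error of low genes such as Ciita could not be given.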

Other observations

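CD4 T cells are the cells that read class II. Of 7 testable T cell genes, 0 fell and 2 rose in IMQ + NS against control, Cd4 (0.71) and Icos (1.45), the latter a costimulatory receptor of activated T cells. The share that rose was near the 29% of all genes, while 27.1% of all genes fell. The CD3 chain gene Cd3e had a value of -0.78 and did not pass (adjusted p = 0.080, limma). With BZLF against IMQ + NS 2 fell, Foxp3 (-1.09) and Icos (-1.78), beside 5.17% of all genes. In IMQ + BZLF against control 3 fell, Cd3d (-0.76), Cd3e (-1.24) and Cd3g (-1.05), beside 29.2% of all genes. The list summed to 12.4 to 18.9 FPKM in control, 11.3 to 22.7 FPKM in IMQ + NS and 5.50 to 12.3 FPKM in IMQ + BZLF.

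Plasmacytoid dendritic cells respond to agonists of the kind used here. Their marker Siglech fell by 2.10 in log2 in IMQ + NS and by 1.54 in IMQ + BZLF, each against control, and was not called between the lesion groups (0.56). Ccr9, the other gene on that list, did not pass in any of the 3 comparisons (0.41, -0.60 and -0.19). The 2 genes summed to 0.778 to 2.86 FPKM in control and to at most 0.892 FPKM in a lesion sample.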
